A study of Mus musculus with 3 samples.

Results

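The cytosolic ribosomal protein genes were taken as the autosomal protein-coding genes of GENCODE M21 on GRCm38 whose symbol is Rpl or Rps followed by a number, with Rpsa, Rplp0, Rplp1 and Rplp2 and without the Rps6k kinases. The rule found 88 genes of the 20242 autosomal protein-coding genes that had a valid window, and these members were covered by 274 of the 1186323 valid windows of 2 kb. The symbol rule also took in genes that are not standard ribosomal proteins: 8 paralogs, 6 genes with a symbol ending in -ps and a number, and Rps19bp1, which encodes a binding partner of Rps19. The remaining 73 genes are called core members below, of which 30 belong to the small subunit (Rps and Rpsa) and 43 to the large subunit (Rpl and the 3 stalk genes). The core genes Rpl10, Rpl36a, Rpl39 and Rps4x lie on the X chromosome and so fall outside the rule.

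The measurement was ultra-low input native ChIP-seq for H3K36me3, in which MNase-digested chromatin of few cells is precipitated without crosslinking. The samples were 3 replicate pools of wildtype C57BL6/Babr germinal vesicle (GV) oocytes from 25-day-old mice, with about 280 oocytes in each pool, and they form a single group without a control or treatment. By the study's methods, replicate 2 was made with less antibody as part of a titration, and 1 of the pools with the larger amount was prepared after that titration. The pools were thus not all made at once, and whether they came from separate animals is not given in the sources used here, so the spread between them may be partly technical.

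Ribosomal proteins assemble with ribosomal RNA into the small subunit, which reads the mRNA, and the large subunit, which forms the peptide bond. Each protein is needed in near equal numbers, and the genes are short, mostly with a single functional copy, and transcribed in almost every cell. H3K36me3 is laid down along the body of transcribed genes by enzymes that travel with RNA polymerase II, H3K4me3 marks active promoters and, in oocytes, also broad untranscribed domains, and H3K27me3 marks repressed chromatin. The growing oocyte makes and stores ribosomes that the early embryo depends on.

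The promoters of a few members are shown because the results below turn on the start window, the 2 kb window that holds the annotated 5′ end of a gene. Each sequence runs 5′ to 3′ along the gene, from 150 bases before to 20 bases after the RefSeq start on GRCm38.p6, and capitals mark CpG dinucleotides. Rpl9, Rpl14 and Rps7 are the core members with the highest H3K36me3 that had a promoter entry. Rpl22l1 and Rpl39l are paralogs with H3K36me3 above the threshold, and Rpl10l and Rpl3l are paralogs below it.
Rpl9 (chr5:65391412-65391581, minus strand): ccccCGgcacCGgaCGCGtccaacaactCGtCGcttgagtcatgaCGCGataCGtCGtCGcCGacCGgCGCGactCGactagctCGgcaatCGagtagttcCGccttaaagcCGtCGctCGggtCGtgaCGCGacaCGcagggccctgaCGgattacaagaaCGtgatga
Rpl14 (chr9:120571367-120571536, plus strand): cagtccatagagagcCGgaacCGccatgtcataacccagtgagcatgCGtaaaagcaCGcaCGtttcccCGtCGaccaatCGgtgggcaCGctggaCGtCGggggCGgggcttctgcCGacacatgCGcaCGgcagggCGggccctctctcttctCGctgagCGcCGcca
Rps7 (chr12:28635934-28636103, minus strand): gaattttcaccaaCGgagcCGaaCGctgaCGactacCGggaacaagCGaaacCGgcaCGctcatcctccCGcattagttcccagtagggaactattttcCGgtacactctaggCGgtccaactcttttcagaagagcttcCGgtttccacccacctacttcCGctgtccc
Rpl22l1 (chr3:28805358-28805527, plus strand): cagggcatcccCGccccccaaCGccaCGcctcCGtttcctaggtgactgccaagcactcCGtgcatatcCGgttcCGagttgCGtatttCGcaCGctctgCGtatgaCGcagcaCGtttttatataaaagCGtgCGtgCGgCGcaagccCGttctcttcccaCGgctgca
Rpl39l (chr16:10170078-10170247, plus strand): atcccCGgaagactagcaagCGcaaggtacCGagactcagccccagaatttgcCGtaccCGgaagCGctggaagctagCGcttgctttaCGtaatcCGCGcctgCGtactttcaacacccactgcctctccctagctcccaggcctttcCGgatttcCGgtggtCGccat
Rpl10l (chr12:66284382-66284551, minus strand): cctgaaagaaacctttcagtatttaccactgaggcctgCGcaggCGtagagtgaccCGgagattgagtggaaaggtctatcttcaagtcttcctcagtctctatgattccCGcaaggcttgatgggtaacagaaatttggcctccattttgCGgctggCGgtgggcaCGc
Rpl3l (chr17:24727676-24727845, plus strand): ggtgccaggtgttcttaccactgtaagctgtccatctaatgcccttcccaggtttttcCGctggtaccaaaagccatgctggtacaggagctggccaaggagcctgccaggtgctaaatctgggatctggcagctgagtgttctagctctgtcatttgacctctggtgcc
The printed stretch held 28 CpGs in Rpl9, 19 in Rpl14, 13 in Rps7, 19 in Rpl22l1 and 14 in Rpl39l. It held 7 CpGs in Rpl10l and 1 in Rpl3l, but other paralogs below the threshold had CpG-rich promoters, such as Rpl36al with 42 CpGs in 300 bases. Over whole promoters of 300 bases, 53 of the 73 core members had an entry, with a median of 22 CpGs and a range of 8 to 35. The median was 15 over the 15703 autosomal protein-coding genes with an entry and 19 over the 11960 of these with an H3K4me3 call at the RefSeq start. The lowest core member was Rpl6, with 8 CpGs. The letters CCGGAAG, the core of many ETS-family binding motifs, were found on either strand in 22 of the 53 core promoters (41.5%) and in 12.6% of all promoters. The pyrimidine run CTCTTTC, of the kind found at the start of many ribosomal protein mRNAs, was in 16 of 53 (30.2%) and in 7.83% of all promoters, and AAGATGG, part of the YY1 motif, was in 8 of 53 (15.1%) and in 6.42%. The 3 searches covered both strands, hold no motif inside another, and describe these windows only.

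Depth limited what could be said of single genes. Summed over windows, the tables held 7888140 reads in replicate 1, 2692510 in replicate 2 and 3166564 in replicate 3. Of these, 3304, 1161 and 1491 lay in windows of the members, and a read across neighbouring windows may count in each. A core member was covered by 17 to 356 reads over the 3 replicates, with a median of 65. One read was worth 0.136, 0.396 and 0.338 RPKM in replicates 1, 2 and 3. Of the oocyte markers on autosomes, 7 of 7 had a mean H3K36me3 above 1 RPKM, as had 2 of 6 granulosa cell markers, Hsd17b1 (1.40 ± 0.12, SD, n = 3) and Amh (1.39 ± 0.68). The other 4 granulosa markers lay between 0.353 (Fshr) and 0.714 RPKM (Cyp19a1), and a part of somatic chromatin in the levels below was not tested.

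The level of a gene was the mean RPKM of the valid windows that overlap it, and 1 RPKM is the authors' threshold for an enriched window. The 88 members averaged 1.58, 1.60 and 1.84 RPKM in replicates 1, 2 and 3. All autosomal protein-coding genes averaged 1.19, 1.20 and 1.23 RPKM in the same replicates, so the members were higher in 3 of 3. The log2 ratio was 0.46 ± 0.10 (SD, n = 3), a 1.38-fold difference, with p = 0.25 when signs were flipped over replicates (exact permutation, two-sided), the smallest p that 3 replicates allow. For the core members alone, at 1.82 ± 0.15 RPKM, the log2 ratio was 0.58 ± 0.10. Against the 6858 genes of at most 10 kb, which averaged 0.890 ± 0.008 RPKM, it was 1.03 ± 0.13, again with the smallest possible p of 0.25. The median gene length of the core members was 3368 bp.

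A mean level above 1 RPKM was reached by 77 of the 88 members (87.5%), beside 52.9% of all autosomal protein-coding genes and 36.5% of those of at most 10 kb. Of the core members 71 of 73 (97.3%) passed, the exceptions being Rpl29 and Rps21. In every one of the 3 replicates, 58 of the 88 members and 54 of the 73 core members (74.0%) were above 1, beside 46.9% of all genes. A single window needed 8 reads in replicate 1 and 3 in each of the others to exceed 1. Taken singly, replicates 1, 2 and 3 had 67, 63 and 67 core members above 1.

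**Figure D1:**
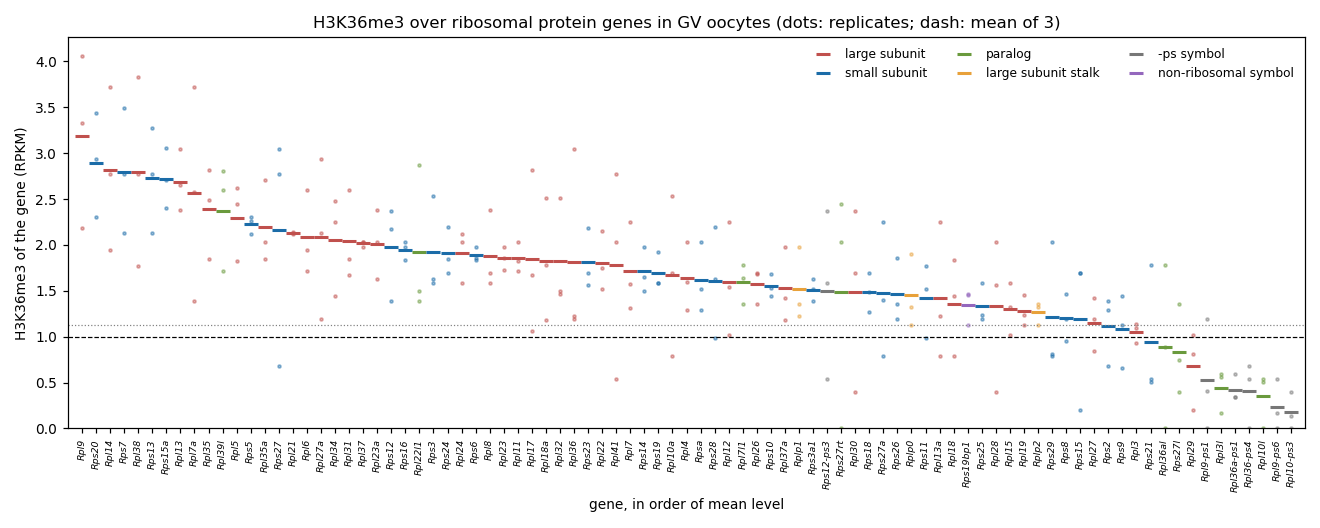
H3K36me3 level (RPKM, y axis) of the members in order of mean level, leaving out a gene that is not reported here (x axis), coloured by class, with dots for the 3 replicates and a dash for their mean. The dashed line is 1 RPKM and the dotted line the median of all autosomal protein-coding genes, 1.13 RPKM; of the core members drawn, those below the dashed line are Rpl29 and Rps21, while most of the genes at the right end are paralogs or genes with a -ps symbol.

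The core members did not stand at the top of the genome. Their median, 1.81 RPKM, stood beside 1.13 RPKM over all autosomal protein-coding genes, their median percentile among these was 70.0, and 22 of 73 exceeded 2 RPKM. Over all autosomal protein-coding genes the 76th percentile was 1.97 RPKM and the 78th was 2.03 RPKM. The coefficient of variation of the core members' means was 29.4%, and 68 of 73 lay above the median of all genes. Counting error alone amounted to 23.9% of the variance between core members. The spread between replicates, which takes in counting error, amounted to 38.6%, so these shares overlap and do not add up. The median SD of a core member over the replicates was 0.415 RPKM, and that which counting alone would give was 0.431 RPKM. Neighbours in the order of levels differed by a median of 0.0223 RPKM, so most adjacent ranks cannot be told apart. Across the 73 core members, which share libraries and differ little in level, Pearson's r between replicates was 0.52 for replicates 1 and 3, 0.37 for 2 and 3 and 0.28 for 1 and 2, whereas across all genes it was 0.86 to 0.92.

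The highest core member was Rpl9, a protein of the large subunit (ENSMUSG00000047215.14, chr5:65388364-65391444, minus strand). It measured 3.33, 2.18 and 4.06 RPKM in replicates 1, 2 and 3, a mean of 3.19 ± 0.95, and stood at the 99.5th percentile of all genes. It shares 1 of its 2 windows with another protein-coding gene. Rps20 reached 2.89 ± 0.56, Rpl14 2.81 ± 0.89 and Rps7 2.80 ± 0.69 RPKM. The lowest single value among Rpl9, Rps20, Rpl14 and Rps7 was 1.95 RPKM, for Rpl14 in replicate 1.

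The lowest core member was Rpl29 (ENSMUSG00000048758.14, chr9:106429454-106431568, plus strand), a large-subunit protein whose loss is tolerated in mice. It measured 0.815, 0.198 and 1.02 RPKM, a mean of 0.676 ± 0.426 from 19 reads. None of its windows was called for H3K36me3, the only core member of which that was true. Rps21 measured 0.543, 1.78 and 0.508 RPKM, a mean of 0.945 ± 0.727 from 20 reads, and so was above 1 in replicate 2 alone. Rpl3, which lies near the catalytic centre of the ribosome, had 1.14, 1.09 and 0.931 RPKM. This mean of 1.05 ± 0.11 rested on 8 windows and 111 reads and is better measured than the others. Rps9 and Rps2, both at the entry of the mRNA channel, had 1.08 ± 0.40 and 1.12 ± 0.39 RPKM. All 5 of these genes lay within 1 SD of the threshold.

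The largest spread among all members belonged to Rps27rt, a retrogene of Rps27 of 374 bp on chromosome 9, with 2.44, 0 and 2.03 RPKM from 24 reads in a single window. Among the core members it belonged to Rps27, with 0.679, 2.77 and 3.05 RPKM from 21 reads, also in a single window. Many ribosomal protein genes have processed copies of near-identical sequence, and how reads that map to several places were treated is not given in the sources used here. Levels of such genes are therefore uncertain. Annotated exons filled 7.04% to 78.1% of the window bases of a core member. The median level was 1.76 RPKM in the 36 core members below the median exon share and 1.83 RPKM in the 37 at or above it. Spearman's rho of exon share and level across core members was 0.25, and what it reflects was not tested.

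The subunits differed by less than the spread between replicates on the mean over genes. The 30 small-subunit members averaged 1.65, 1.80 and 1.92 RPKM in replicates 1, 2 and 3, and the 43 large-subunit members 1.75, 1.71 and 2.04 RPKM. The log2 ratio of small over large was -0.03 ± 0.09 (SD, n = 3), positive in 1 of 3 replicates, with p = 0.5 by the same exact permutation. The range over replicates was -0.08 to 0.08, and its direction turned to 0.06 ± 0.02 when windows shared with other protein-coding genes were left out. The median over genes gave -0.12 ± 0.05, so the alternatives beyond their spread pointed in opposite directions, each with an exact sign-flip p of 0.25. The 3 stalk proteins, which recruit elongation factors to the large subunit, measured 1.52 ± 0.41 (Rplp1), 1.45 ± 0.40 (Rplp0) and 1.27 ± 0.12 RPKM (Rplp2). Rpsa, a small-subunit protein known also as the laminin receptor, measured 2.04, 1.29 and 1.52 RPKM, a mean of 1.62 ± 0.38.

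Several members are known for Diamond-Blackfan anaemia, a failure of red cell production caused by loss of 1 copy of a ribosomal protein gene. Among these Rps7 was the highest gene named here, and its replicates of 2.13, 2.77 and 3.50 RPKM were all above the mean of the core members. Rpl5 and Rpl11, which carry 5S ribosomal RNA and bind Mdm2, measured 2.30 ± 0.41 and 1.86 ± 0.16 RPKM, and Rpl35a had 2.04, 1.85 and 2.71 RPKM. Rps24, Rps19, Rps10 and Rps26 measured 1.92 ± 0.26, 1.70 ± 0.19, 1.55 ± 0.12 and 1.47 ± 0.35 RPKM. Each of these named genes was above 1 RPKM in every replicate, as were 74.0% of the core members and 46.9% of all autosomal protein-coding genes. They come from a partial list, so this does not describe every gene linked to the disease. The start windows of Rps10 and Rps26 were called for H3K4me3 alone, and those of the others named were called for H3K36me3 as well.

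All 73 core members had an H3K4me3 call in the start window, as had 83 of the 88 members (94.3%), beside 78.3% of the 20001 autosomal protein-coding genes with a valid start window. H3K36me3 was called in the start window of 44 members (50%) and 40 core members (54.8%), beside 22.9% of all genes. The count of 44 fell to 21 (23.9%) where each replicate had to exceed 1 RPKM, and to 14 (15.9%) at a threshold of 2 RPKM. The shares of all genes at these settings are not given here, so the contrast is shown only for a mean above 1 RPKM. H3K27me3 was called in the start window of 4 members and 0 core members, beside 32.7% of all genes. A low share was not particular to them among the translation genes described below. H3K27me3 was called at the start of 3 of 78 mitochondrial ribosomal protein genes and 2 of 49 ribosome biogenesis factors. The same held for 0 of 34 translation initiation factors and 2 of 11 genes listed as elongation factors. The core start windows fell into 2 categories only, 40 with H3K36me3 and H3K4me3 and 33 with H3K4me3 alone. The combined category held 16.2% of the start windows of all genes. Taking the whole gene, 4 members and 0 core members had a window called for H3K27me3, beside 43.8% of all genes. These whole-gene shares are not like for like, since a longer gene has more windows in which a call can fall. The median length was 3368 bp in core members and 18246.5 bp over all genes. At the start window alone, genes of at most 10 kb had an H3K27me3 call in 32.2%. The calls of H3K4me3 and H3K27me3 are the authors' and have 1 value per window, so no spread between replicates can be given for them.

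Whether a core start window was called for H3K36me3 moved with where the annotated start fell in it. In the 14 core members with 1 to 500 bases of the start window at or after the start, the window averaged 0.863, 0.510 and 0.435 RPKM in replicates 1, 2 and 3, and 2 of 14 were called for H3K36me3. With 501 to 1000 bases it averaged 0.860, 0.887 and 0.822 RPKM, and 6 of 21 were called. With 1001 to 1500 bases it averaged 1.57, 1.84 and 1.60 RPKM with 15 of 19 called, and with 1501 to 2000 bases 1.38, 1.63 and 1.82 RPKM with 17 of 19 called. Both upper classes were above both lower ones in each replicate. Over all autosomal protein-coding genes the same classes held 19.3%, 19.3%, 23.8% and 29.2% of windows called for H3K36me3. The H3K4me3 call was made in every core start window wherever the start lay.

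**Figure D2:**
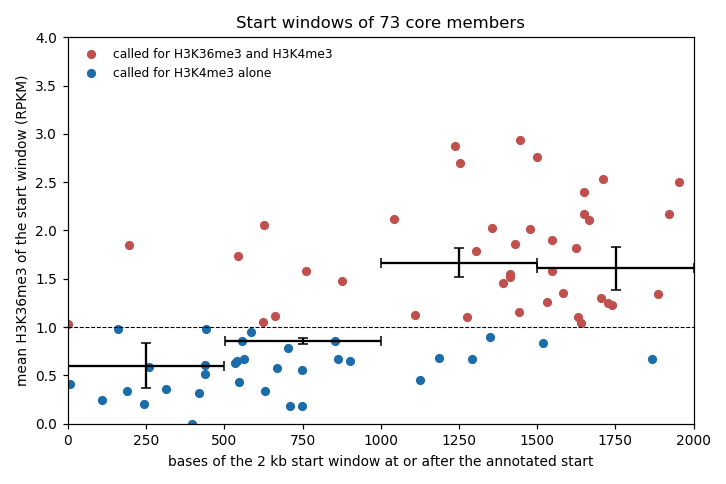
Mean H3K36me3 of the start window (RPKM, y axis) against the number of its bases at or after the annotated start (x axis) for the 73 core members, coloured by the authors' call; black crosses give the mean and its SD over 3 replicates in 4 classes of 500 bases. Most windows above 1 RPKM hold more than 1000 bases of the gene.

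The start windows at both extremes show the range. Rpl9 (chr5:65390001-65392000) had 2.31, 2.77 and 3.72 RPKM in its start window, with 1444 bases after the start, and Rps7 (chr12:28634001-28636000) had 1.63, 3.17 and 2.71 RPKM with 1953 bases. Rpl14 (chr9:120570001-120572000), among the highest genes as a whole, had 0.815, 0.396 and 1.35 RPKM there with 557 bases after the start and no H3K36me3 call. The start window of Rpl34 (chr3:130730001-130732000) was listed at 0 in each replicate, which allows up to 3 reads each, or 0.407, 1.19 and 1.02 RPKM. Its later windows averaged 3.09 RPKM. These windows cover both the promoter and the first part of the gene and cannot separate them.

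Beyond the start window H3K36me3 was higher in the members. In the 81 members with a valid window after the start window, the later windows averaged 1.93, 1.89 and 2.29 RPKM in replicates 1, 2 and 3 and the start windows 1.15, 1.12 and 1.11 RPKM. The later windows were therefore higher in 3 of 3 replicates, without overlap. The log2 ratio was 0.85 ± 0.17 (SD, n = 3), with the smallest possible p of 0.25 (exact sign flips over replicates, two-sided). In the 71 core members with both kinds of window the ratio was 0.84 ± 0.17, from 1.19 ± 0.02 to 2.15 ± 0.23 RPKM. In all autosomal protein-coding genes it was 0.86 ± 0.10, from 0.716 to 1.30 RPKM, and in genes of at most 10 kb it was 0.54 ± 0.08. Whether the step over the start differs between core members and other genes was not tested.

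In core members the profile peaked just after the start, over an upstream flank that was also raised. At 10 kb upstream the level was 1.37 ± 0.13 RPKM, beside 0.936 ± 0.011 over all autosomal protein-coding genes. In core members the window before the start window averaged 1.06 ± 0.09 RPKM, the start window 1.21 ± 0.04, the next 2.22 ± 0.21 and the one after it 2.00 ± 0.13. The level then declined to 1.60 ± 0.09, 1.45 ± 0.16 and 1.33 ± 0.11 RPKM at 6, 8 and 10 kb from the start window. In genes of at most 10 kb the peak was 1.01 ± 0.01 RPKM, at 4 kb. H3K36me3 was called in 87.7% of the windows at 2 kb and 90.4% of those at 4 kb in core members. Over all autosomal protein-coding genes these shares were 40.8% and 45.8%. H3K4me3 was called in 69.9% of the windows before the start window, 100% of the start windows, 60.3% of the next and 30.1% of the one after. All autosomal protein-coding genes had 57.2%, 78.3%, 58.0% and 34.9% there, so the last 2 shares of the core members were near or below the general ones. In the same windows of core members H3K27me3 was called in 2.74%, 0%, 0% and 1.37%. It was called in 20.8% of their windows 10 kb upstream and 26.8% of those 16 kb downstream. In genes of at most 10 kb the H3K27me3 share stayed between 26.7% and 32.2% over the same distances.

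**Figure D3:**
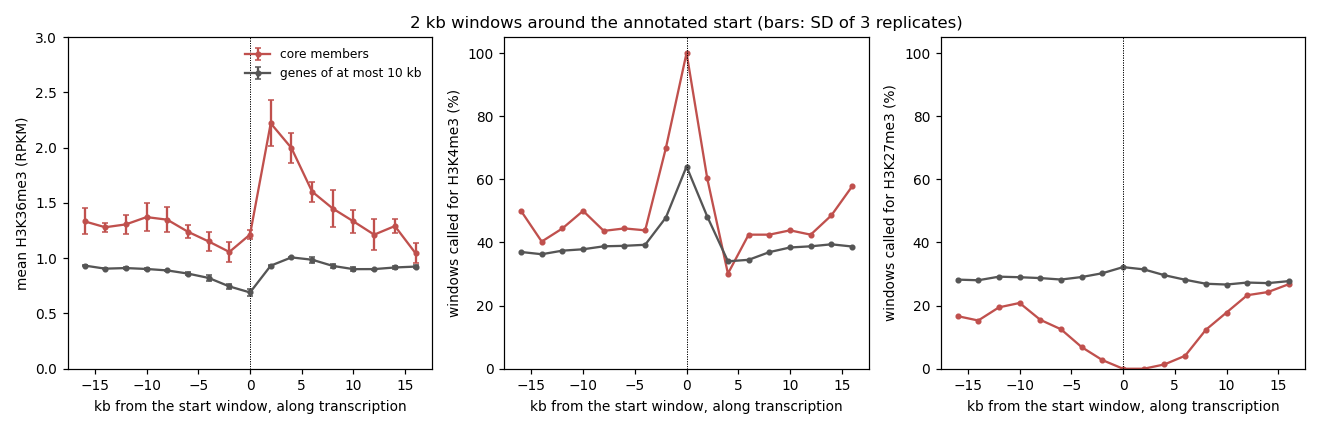
Mean H3K36me3 (left, RPKM), share of windows called for H3K4me3 (middle, %) and share called for H3K27me3 (right, %) in 2 kb windows from 16 kb before to 16 kb after the start window, along the direction of transcription, for core members (red) and autosomal protein-coding genes of at most 10 kb (grey). Bars in the left panel are the SD of 3 replicates; the red line peaks at 2.22 RPKM in the window after the start, where the H3K27me3 share of core members is 0%.

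Of the 239 windows that overlap a core member, 189 (79.1%) were called for H3K36me3, 142 (59.4%) for H3K4me3 and 99 (41.4%) for both. The same shares over the windows of all genes are not given here. By position, both marks were called in 52.1% of core windows at 2 kb and 23.3% at 4 kb after the start window. Over all autosomal protein-coding genes these were 22.5% and 10.6%. The H3K4me3 domain at a core start was mostly short: neighbouring called windows made up a median of 6 kb, beside 8 kb over all genes with a call. It was widest at Rpl17 (90 kb), Rpl19 (52 kb), Rpl5 (44 kb) and Rpl3 (38 kb), genes singled out here after their values were seen. The longest H3K36me3 run that touches a core member had a median of 8 kb, beside 10 kb over all genes. It was at least 10 kb in 36 of 73, and in 5 it was 2 kb or absent, as at Rpl29. The shares of all genes with such runs are not given here. The longest run at any core member, 164 kb, went through Rpl4, a large-subunit protein. It so covered far more than this gene of 5292 bp. Of the core members 34 shared a window with another protein-coding gene. Their median was 1.66 RPKM, beside 1.85 RPKM in the 39 that shared none.

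The annotated spans of a few members were much longer than the usual gene. Rps14 spans 31449 bp and Rpl11 25164 bp, while the shortest core member, Rpl36, spans 828 bp. Levels did not follow length: the medians were 1.80 RPKM in the 28 core members of at most 3000 bp, 1.82 in the 29 of over 3000 and at most 5000 bp, and 1.76 in the 16 longer ones. When the principal transcript replaced the gene, a choice made after the data had been seen, the start of 9 core members moved to another window, and 42 of 73 start windows had both H3K36me3 and H3K4me3 and 31 had H3K4me3 alone.

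The 8 paralogs were divided. Of these, 4 had a mean above 1 RPKM and 4 had not. Rpl39l, the testis-enriched counterpart of the X-linked Rpl39, had 2.81, 1.72 and 2.59 RPKM, a mean of 2.37 ± 0.58, with H3K36me3 and H3K4me3 at its start. It was higher than Rpl39 (1.49 ± 0.34) in 3 of 3 replicates, by 0.88 ± 0.44 RPKM. Rpl22l1 had 1.49, 1.39 and 2.88 RPKM, and its partner Rpl22 had 2.15, 1.52 and 1.75 RPKM. The difference of 0.11 ± 0.92 RPKM was within the spread. Rpl7l1 and Rpl7 measured 1.59 ± 0.22 and 1.71 ± 0.48 RPKM, also within the spread.

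Lower levels were found at Rpl3l, the form of Rpl3 known from heart and skeletal muscle. Its replicates had 0.566, 0.595 and 0.169 RPKM beside 1.14, 1.09 and 0.931 RPKM for Rpl3, lower in 3 of 3 by 0.61 ± 0.14 RPKM. Its start window was called for H3K4me3 and H3K27me3, and 5 of its 6 windows were called for H3K27me3. Rpl10l, known from male germ cells, had 0.543, 0 and 0.508 RPKM from 11 reads, and the X-linked Rpl10 had 0.883, 0.595 and 2.37 RPKM. Rps27l, with 0.832 ± 0.484 RPKM, and Rpl36al, with 0.889 ± 0.892 RPKM, lay below Rps27 (2.17 ± 1.30) and the X-linked Rpl36a (1.24 ± 1.06), each in 2 of 3 replicates, with differences of -1.33 ± 1.26 and -0.35 ± 1.95 RPKM. CpG number over 300 bases of promoter did not separate the 8 paralogs by level. Those above 1 RPKM had 30 (Rpl22l1), 17 (Rpl39l), 16 (Rpl7l1) and 9 (Rps27rt), and those below it had 42 (Rpl36al), 24 (Rps27l), 13 (Rpl10l) and 2 (Rpl3l).

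The members without H3K4me3 at the start, or with H3K27me3 there, numbered 7 and were all outside the core. By level they were Rps12-ps3 (1.50 ± 0.92 RPKM) and Rps27rt (1.49 ± 1.31), both with H3K36me3 alone, and then Rpl9-ps1 (0.532 ± 0.604) with no mark. Below these came Rpl3l (0.443 ± 0.238), Rpl36a-ps1 (0.424 ± 0.148), Rpl36-ps4 (0.407 ± 0.358) and Rpl10-ps3 (0.177 ± 0.201). Rpl3l and Rpl36-ps4 had H3K4me3 and H3K27me3, and Rpl36a-ps1 and Rpl10-ps3 had H3K27me3 alone. Each of the 6 genes with a -ps symbol rested on 2 to 15 reads, and their order is not resolved. The windows of both Rps12-ps3 and Rps27rt overlap another protein-coding gene, so their H3K36me3 cannot be told apart from that of the other gene.

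Other genes of translation gave a frame for these levels. The 78 mitochondrial ribosomal protein genes averaged 1.69 ± 0.07 RPKM, with 69 above 1 (88.5%), from Mrpl36 (0.187 ± 0.113) to Mrps7 (2.79 ± 0.77). The core members exceeded them by a log2 ratio of 0.10 ± 0.07, positive in 3 of 3 replicates with the exact sign-flip p of 0.25. H3K36me3 was called at 29 of 78 mitochondrial start windows (37.2%) and H3K4me3 at 77 of 78. The 49 ribosome biogenesis factors averaged 2.04 ± 0.11 RPKM, from Rrs1 (0.517 ± 0.260) to Utp18 (2.96 ± 0.43), with 46 above 1. The core members were lower than these, by a log2 ratio of -0.17 ± 0.04 in 3 of 3 replicates (exact sign-flip permutation p = 0.25). At the start, however, H3K36me3 was called in 12 of 49 biogenesis factors (24.5%) and in 40 of 73 core members.

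All 34 translation initiation factors were above 1 RPKM, with a median of 2.03 RPKM and a range from Eif1ad (1.05 ± 0.57) to Eif4a3 (4.00 ± 0.38). Of 11 genes listed as elongation factors or related to them, 9 were above 1, with a median of 2.16 RPKM. The highest were Eef1e1 (2.59 ± 0.47), Tpt1 (2.40 ± 0.91) and Eef2k (2.29 ± 0.16). These are not elongation factors themselves, so the median and the count describe the list and not the factors alone. Those not above 1 were Eef1a2, the muscle and neuron form (0.368 ± 0.270), and Eef1a1, the common form, which delivers aminoacyl-tRNA to the ribosome. Eef1a1 had 0.521, 0.595 and 0.564 RPKM, below the lowest core member's mean, with H3K4me3 at its start. Of the ribosomal proteins with other symbols, Rack1 measured 1.78 ± 0.68 and Fau 1.53 ± 0.25 RPKM, inside the range of the core members.

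**Figure D4:**
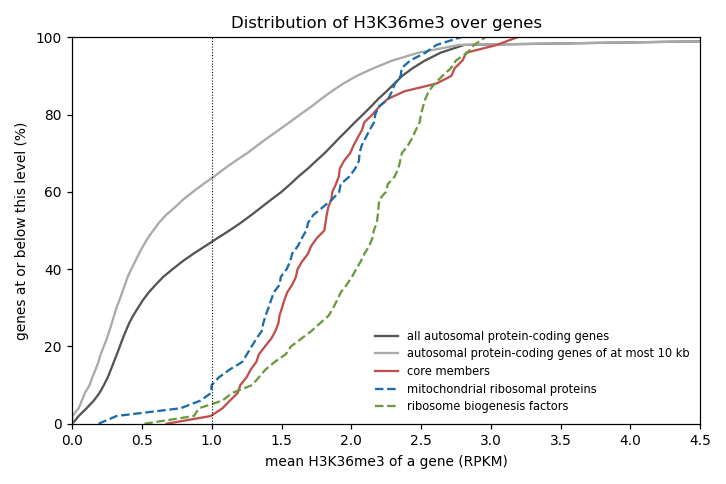
Cumulative share of genes (y axis, %) at or below a mean H3K36me3 level (x axis, RPKM) for core members, mitochondrial ribosomal protein genes, ribosome biogenesis factors, all autosomal protein-coding genes and those of at most 10 kb. The core members start at 0.676 and end at 3.19 RPKM, with a median of 1.81 beside 2.16 RPKM for the biogenesis factors.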

How the data were processed

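The deposited tables were made by the authors. Per the methods of the study and the labels, reads were mapped to GRCm38 with Bowtie2 2.2.9 and quantified by the authors as RPKM in SeqMonk over 2 kb windows, and windows with very low or very high input signal were removed. The deposited RPKM values are linear, with 1 column per replicate. Each replicate's values were multiples of its smallest value above 0, taken as 1 read, so they are proportional to reads per library, and whether they were also divided by window length is not settled. The second table holds the authors' category of each window. Its H3K4me3 and H3K27me3 calls rest on earlier libraries, and its H3K36me3 call equalled a mean RPKM above 1 in every window. Whether duplicate reads were removed is not given in the sources used here.

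A gene's level was the mean of valid windows overlapping it by at least 1 base (GENCODE M21). Means and SDs are over 3 replicates. Log2 ratios used mean levels with no pseudocount and were tested by exact permutation, flipping the sign of each replicate (two-sided; Python 3.11.15, NumPy 2.4.6, SciPy 1.17.1). The code was tested on simulated data. With a single group there was no comparison between conditions. Members and lists were chosen with earlier results of these data known. Genes named were the 5 highest and 5 lowest core members, the most variable member, Rpsa and the stalk genes. A partial list of Diamond-Blackfan genes was also named, as were paralogs beside their partner. So were members with H3K27me3 or without H3K4me3 at the start, and the extremes of each list. Some genes that this rule takes in are not reported here by name. Promoters came from RefSeq (GRCm38.p6), in which 62 of 88 members matched by symbol. Floors and read numbers cover counting error only.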

Additional observations from a re-analysis of the deposited data

How the results depend on the processing

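Of 54 alternatives run over 7 results, 45 kept the direction or stayed within 1.5 times the count, 8 counts moved further and 1 ratio reversed. The count of members above 1 RPKM was 76 to 77 when a replicate was left out and fell to 23 at a threshold of 2 RPKM. Over all autosomal protein-coding genes, 2 RPKM lay between the 76th and 78th percentiles. The log2 ratio of the members over all genes was 0.41 to 0.49 without a replicate, that of later over start windows 0.75 to 0.90, and that of small over large subunit -0.08 to -0.00254. The subunit ratio reversed to 0.056 with windows of no other protein-coding gene, and the cause was not tested. H3K36me3 start windows numbered 43 to 48 without a replicate, 14 at a threshold of 2 RPKM, 21 above 1 in each replicate, and 76 with either neighbouring window included. The shares of all genes at these settings are not given here. Restricting to the 46 members whose start lies at least 500 bases from a window edge gave 44 start windows with H3K4me3, 23 with H3K36me3 and 2 with H3K27me3, because fewer genes were counted. With core members only, the H3K27me3 count was 0 in place of 4. There were no groups to pair, since the series has 1 group, and each ratio was taken within replicates. The main limits are depth, with a median of 35, 12 and 16 reads per core member in replicates 1, 2 and 3, and the 2 kb window, which cannot part a promoter from the first part of a short gene.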

Other observations

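The annotation also holds 257 autosomal pseudogenes named after ribosomal proteins. Their mean level was 0.722 ± 0.028 RPKM (SD, n = 3), and 68 (26.5%) were above 1 RPKM. The 81 whose windows overlap a protein-coding gene averaged 1.20 ± 0.03 RPKM, with 45 (55.6%) above 1. The 176 that overlap none averaged 0.50 ± 0.045 RPKM with a median of 0.271, and 23 (13.1%) were above 1. Of these 176, 66 (37.5%) had an H3K4me3 call and 73 (41.5%) an H3K27me3 call in the window of the annotated start.

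Of the X-linked ribosomal protein genes, Rps4x was the highest, with 1.95, 3.30 and 1.80 RPKM. Rpl39, Rpl10 and Rpl36a measured 1.49 ± 0.34, 1.28 ± 0.95 and 1.24 ± 1.06 RPKM. The start window of Rpl36a was called for H3K4me3 and H3K27me3, a category that no autosomal core member had.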
